A study of Homo sapiens with 7 samples.

Results

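MECOM was the protein-coding gene with the most linked distal anchors in the endometrial cancer line Ishikawa, and its chromatin contacts are described here start site by start site in 3 cancer cell lines. A contact, or loop, is a pair of different genomic intervals (anchors) on 1 chromosome that were joined by read pairs of H3K27ac HiChIP, an assay that ligates DNA ends lying close together in the nucleus and enriches for chromatin acetylated at lysine 27 of histone H3, a mark of active promoters and enhancers. A loop was assigned to MECOM when an anchor overlapped a window of 500 bp centred on any MECOM start site in the GENCODE annotation. This gave 124 of 354783 loops, namely 105 of the 163530 Ishikawa loops, 19 of the 42027 T-47D loops and 0 of the 149226 LNCaP loops. A distal anchor is an anchor without a promoter of a protein-coding gene. Contacts of a start site are here those of the anchor over it, and their place within that anchor is not known. The gene was chosen by its number of linked distal anchors in Ishikawa, so the Ishikawa numbers describe the gene and are not a test of it.

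The samples were 4 of Ishikawa (endometrial adenocarcinoma), of which 2 received the vehicle DMSO and 2 received 10 nM 17beta-estradiol (E2), each for 1 h, together with 1 sample of T-47D (breast ductal carcinoma) and 2 of LNCaP (prostate carcinoma), for which the labels name no treatment. All were grown in RPMI medium with fetal bovine serum, and per the study's methods cells entered a hormone-depleted medium, with charcoal-stripped serum and no phenol red, 5 days ahead of E2 treatment. The authors combined samples into 1 loop list per cell line, so no replicate error could be obtained, DMSO and E2 were not compared, and the intervals below cover counting error only. Ishikawa chromatin was cut with DpnII and that of the other lines with MboI, and sonication, read length and sequencing depth followed the same split, so these cannot be told apart from the cell line in any comparison with Ishikawa.

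Depth differed between the lists, with 1040329 read pairs in the loops of Ishikawa, 351260 in those of T-47D and 1805322 in those of LNCaP, and the lowest value of a loop was 3 read pairs in each list. The marker genes given here, other than TFAP2A, were highest in the line whose label they fit. PAX8, SOX17 and EMX2, transcription factors of Müllerian epithelium, had 5, 3 and 11 linked distal anchors in Ishikawa and 0 in the other lists. GATA3 and TRPS1, transcription factors of luminal breast cells, had 30 and 36 in T-47D against at most 1 elsewhere, whereas TFAP2A had 8 in T-47D and 13 in LNCaP. KLK3 (prostate-specific antigen) and HOXB13 had 15 and 25 in LNCaP and 0 elsewhere.

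MECOM, the MDS1 and EVI1 complex locus, encodes a zinc finger transcription factor of the PRDM family, also called PRDM3. Transcription from the upstream (MDS1) start site yields the long MDS1-EVI1 form, which carries a PR domain, and transcription from the downstream (EVI1) start sites yields the short EVI1 form, which lacks it. The gene is known for its role in blood stem cells, for its activation by rearrangements of 3q26 in myeloid leukaemia, and for its expression in epithelia of the female reproductive tract.

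In the annotation, MECOM (ENSG00000085276.19_17) spans 580 kb of the minus strand of chromosome 3 (168801287 to 169381563, GRCh37) with 20 transcripts. Its 14 start sites fell into 5 groups when sites no more than 5 kb apart were joined. The MDS1 group (169381406 to 169381563) has 3 sites. An intronic group has 1 site, at 168987026, which lies 395 kb downstream and starts transcript MECOM-211. The EVI1 group (168864076 to 168865522) has 6 sites, starts 11 transcripts and lies 516 kb downstream of the MDS1 group. Farther downstream, 3 sites at 168845822 to 168851758 and 1 site of a retained-intron transcript at 168840460 form the last groups.

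The 250 bases before the most upstream site of the MDS1 and intronic groups are shown because these start sites led in T-47D and in Ishikawa and differed in base composition. Each is written 5′ to 3′ on the minus strand of GRCh37, read from the reference genome, with every CG dinucleotide in capitals.
MDS1 start, chr3:169381564-169381813: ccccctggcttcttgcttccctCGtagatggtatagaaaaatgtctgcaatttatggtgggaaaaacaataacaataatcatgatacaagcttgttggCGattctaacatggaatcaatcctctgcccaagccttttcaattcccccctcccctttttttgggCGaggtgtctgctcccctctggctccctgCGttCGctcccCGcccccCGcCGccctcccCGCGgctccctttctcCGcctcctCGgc
Intronic start, chr3:168987027-168987276: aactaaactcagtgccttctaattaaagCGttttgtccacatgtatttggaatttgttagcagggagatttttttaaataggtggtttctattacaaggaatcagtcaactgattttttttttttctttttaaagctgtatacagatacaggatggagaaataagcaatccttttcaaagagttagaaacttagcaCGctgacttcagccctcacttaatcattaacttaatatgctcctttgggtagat
The MDS1 sequence held 12 CG dinucleotides at 54.8% G and C. The intronic sequence held 2 at 33.2%, which was lower in G and C than all but 5.23% of the same window at 146306 annotated start sites, where the median was 10 CG dinucleotides and 58% G and C. The start site under the anchor with the most Ishikawa contacts thus had fewer CG dinucleotides than the one under the anchor of all T-47D loops.

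With all start sites counted, the level of MECOM contacts on the scale of the whole list was highest in Ishikawa and lower in T-47D, and no MECOM loop was listed in LNCaP. In Ishikawa, MECOM loops held 1008 read pairs, 0.0969% of those in the list (95% Wilson interval 0.0911 to 0.103) or 969 RPM, where RPM is read pairs per 1000000 read pairs in the loops of a list. In T-47D they held 160 read pairs, 0.0456% (0.0390 to 0.0532) or 456 RPM. In LNCaP no MECOM loop was listed. Since loops below 3 read pairs or with a high false discovery rate were removed, no level and no fold can be given for that line. The Ishikawa level was 2.13-fold the T-47D level (exact conditional interval 1.80 to 2.53). This order rested on the anchor over the intronic start site: without its loops, Ishikawa had 45 MECOM loops with 302 read pairs (0.0290%), and T-47D was 1.57-fold higher (1.29 to 1.91). Reads without molecular identifiers are not independent molecules, so the true error may be larger than these intervals.

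The order of Ishikawa and T-47D also depended on the scale. Loops with both anchors within 5 Mb of the gene held 1.14% of the Ishikawa read pairs, 0.373% of the T-47D read pairs and 0.323% of the LNCaP read pairs, so the whole segment was denser in Ishikawa. Of the read pairs in this neighbourhood, MECOM loops took 8.51% (8.02 to 9.03) in Ishikawa and 12.2% (10.6 to 14.1) in T-47D, which put T-47D 1.44-fold higher (1.21 to 1.70). LNCaP had 0 MECOM loops among 587 in the neighbourhood. The part of the denser segment in the difference on the list scale was not tested.

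**Figure D1:**
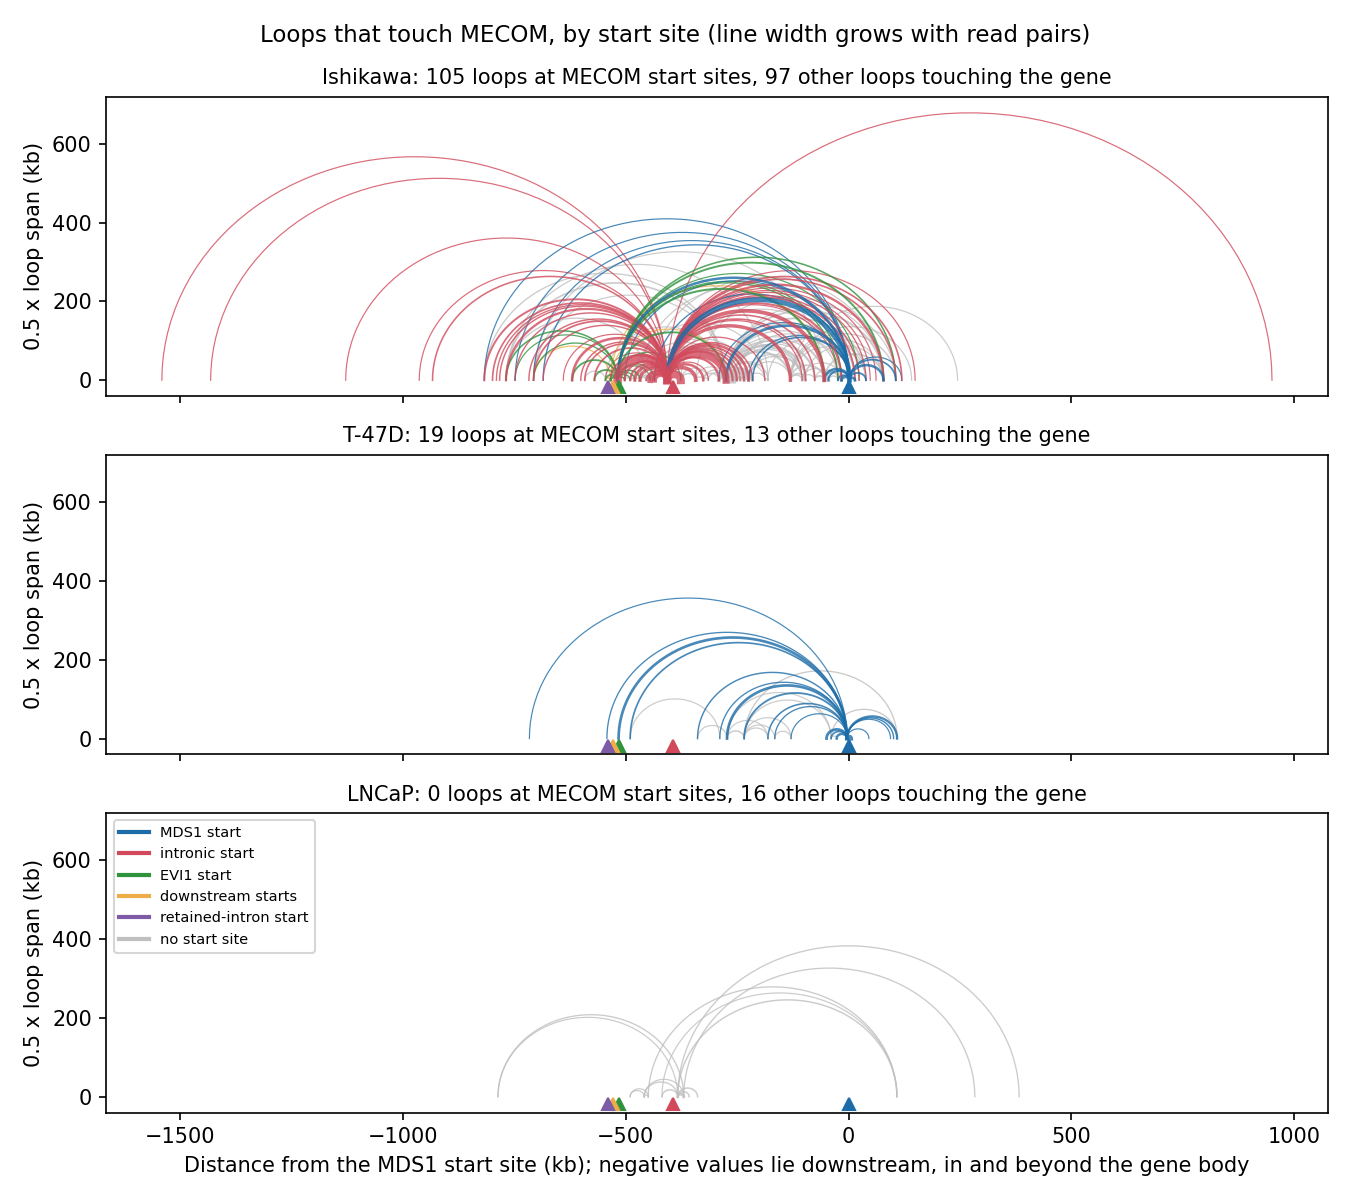
Arcs join the centres of the anchors of every loop that touches MECOM in Ishikawa, T-47D and LNCaP, placed by distance in kb from the MDS1 start site (horizontal axis), and their height is 0.5 times the loop span in kb (vertical axis, the same in each panel). Colours give the start site group, with the most upstream group taking loops that join 2 groups, grey arcs touch the gene but no start site, triangles mark the groups and line width grows with read pairs. Ishikawa shows 105 coloured loops, most from the intronic start site, T-47D shows 19, all from the MDS1 start site, and LNCaP shows none but has 16 grey loops.

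The numbers of contacts ranked differently in the 2 lines that had them. MECOM had 55 linked distal anchors in Ishikawa, rank 1 of 20163 protein-coding genes, and ranked 3 by loops and 4 by read pairs. In T-47D it had 16 distal anchors and ranked 28, but 316 by loops and 472 by read pairs. Genes with at least 1 linked distal anchor had a median of 3 in Ishikawa and 2 in T-47D. In LNCaP, 52.4% of protein-coding genes were linked to a distal anchor and MECOM was among those that were not, and 570 genes (2.83%) shared the pattern of a promoter loop in Ishikawa and in T-47D and none in LNCaP.

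Most Ishikawa contacts and the T-47D contacts came from anchors over different start sites. The intronic site lay in an Ishikawa anchor of 48.9 kb, and where in it the contacts fall is not known. In Ishikawa the intronic site had 60 loops with 706 read pairs, 70.04% of all MECOM read pairs or 679 RPM (630 to 731). The EVI1 group had 23 loops with 204 read pairs, the MDS1 group 21 loops with 191, the 3 downstream sites 6 loops with 39, and the retained-intron site none. These sum to more than 105 loops because 5 loops joined MECOM anchors to each other. In T-47D the anchor over the MDS1 group took part in all 19 loops, and neither the intronic site nor the 3 downstream sites had an anchor.

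The MDS1 start site had more contact in T-47D. The retained-intron site had 1 T-47D loop of 4 read pairs and no Ishikawa loop, but its T-47D anchor only just reached it. That anchor overlapped an Ishikawa anchor outside the window that had 3 MECOM loops with 19 read pairs, so no order is drawn for this site. The level of the MDS1 site was 456 RPM (390 to 532) in T-47D and 184 (159 to 212) in Ishikawa, so T-47D was 2.48-fold higher (2.0 to 3.08). Within 5 Mb of the gene the same ratio was 7.58 (6.11 to 9.40), so the direction held on either scale. The T-47D level includes a loop of 27 read pairs to a region inside the wider Ishikawa MDS1 anchor, where it could not be listed as a loop. The part of anchor width in these ratios was not tested. The EVI1 group went the other way on the list scale, with 196 RPM (171 to 225) in Ishikawa and 42.7 (25.9 to 70.5) in T-47D, a ratio of 4.59 (2.72 to 8.36). Within 5 Mb this ratio was 1.5 (0.890 to 2.73), an interval that includes no difference. The T-47D level of the EVI1 group is 1 loop of 15 read pairs. Of the 204 Ishikawa read pairs of this group, 62 lie in the loop to the wide intronic anchor.

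**Figure D2:**
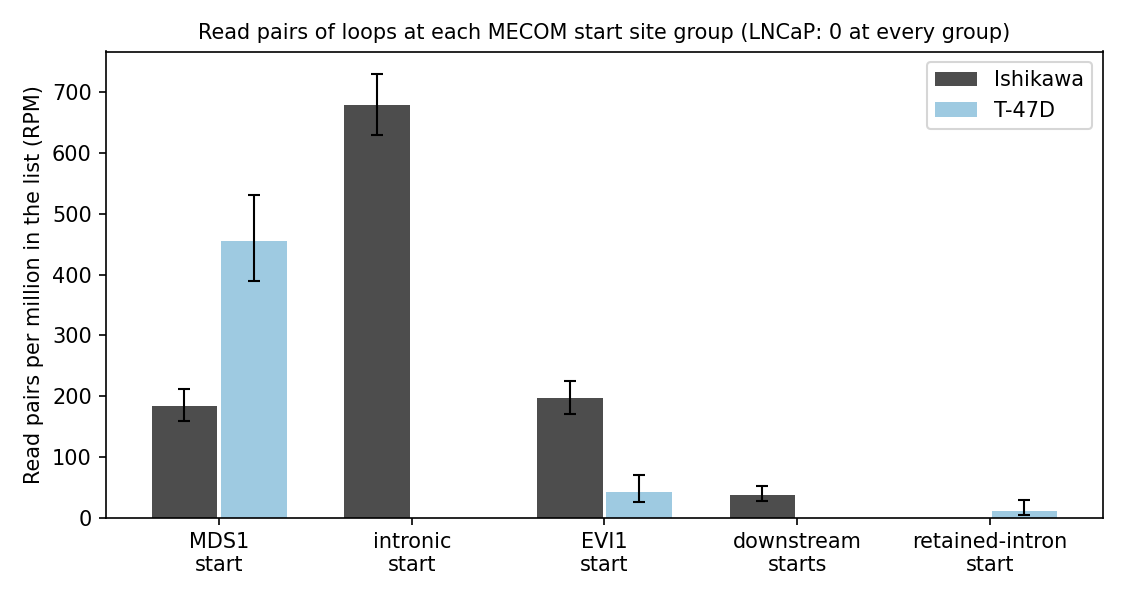
Bars give the RPM of MECOM loops (vertical axis, from 0) at each start site group (horizontal axis) in Ishikawa and T-47D, and lines are 95% Wilson intervals for counting error at groups with loops. The Ishikawa bar is tallest at the intronic start (679) and the T-47D bar at the MDS1 start (456), and loops that join 2 groups count in each.

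The anchors over the start sites differed in width between the lists. In Ishikawa the intronic start lay in an anchor of 48.9 kb (168950026 to 168998908), the EVI1 group in one of 16.7 kb (168854654 to 168871394), the MDS1 group in one of 16.2 kb (169375082 to 169391277) and the downstream group in one of 5.20 kb (168844620 to 168849818). In T-47D the MDS1 anchor was 8.29 kb (169373801 to 169382089), the EVI1 anchor 3.74 kb (168863283 to 168867024) and the retained-intron anchor 3.09 kb (168837375 to 168840462), which reached only 2 bases past its start site. The median anchor was 5.10 kb in Ishikawa and 2.61 kb in T-47D.

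The intronic anchor had more partners than any of the 92121 Ishikawa anchors, but it was also among the widest. Only 2 anchors were as wide, itself included. Per 10 kb of anchor it had 12.3 partners, more than 91.1% of Ishikawa anchors. The MDS1 anchor had 13.0 per 10 kb, the EVI1 anchor 13.7 and the downstream anchor 11.5, so the 4 MECOM anchors were alike in partners per length. The median was 4.83 over all Ishikawa anchors and 9.92 over the 517 within 5 Mb of the gene. In T-47D the MDS1 anchor had 22.9 partners per 10 kb against a median of 11.1, while the EVI1 and retained-intron anchors had 1 partner each. Across Ishikawa anchors, width and partners had a Spearman correlation of 0.303 over all and 0.445 over those within 5 Mb, which is a description because partners are drawn from the same anchors. The part of anchor width in the number of partners was not tested.

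**Figure D3:**
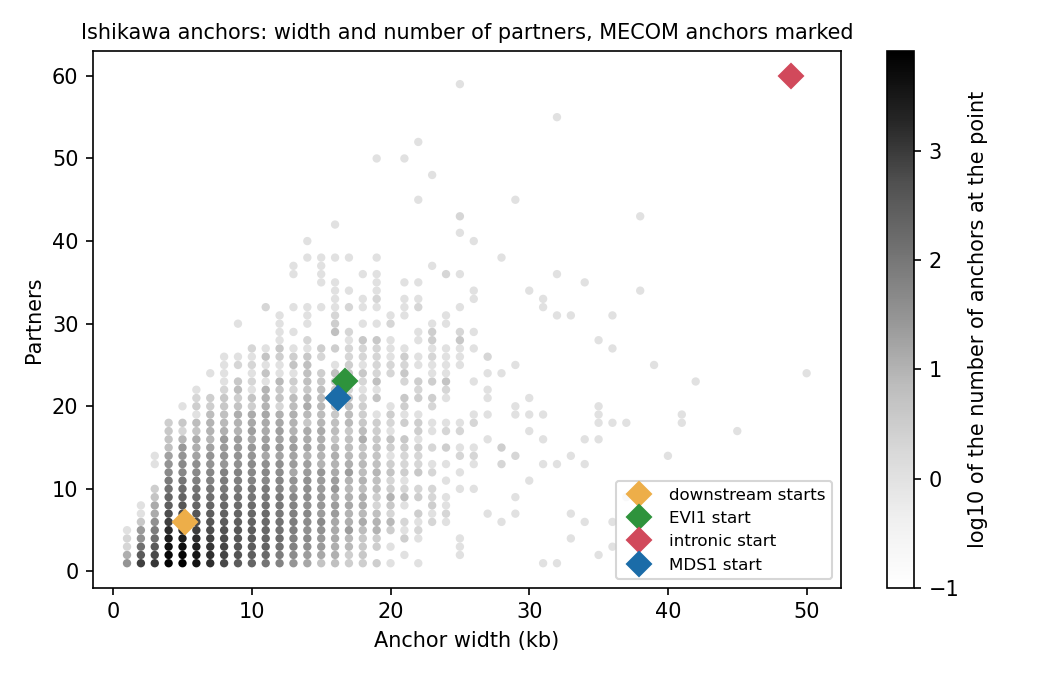
Each grey point is a combination of anchor width in kb (horizontal axis) and number of partners (vertical axis) among the 92121 Ishikawa anchors, shaded by the log10 of the number of anchors there. Diamonds mark the 4 MECOM anchors, of which the intronic one stands alone at 48.9 kb and 60 partners while the EVI1 and MDS1 anchors lie near 17 kb with 23 and 21.

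Contacts between the start sites themselves were present in both lines. In Ishikawa the strongest MECOM loop joined the intronic and EVI1 anchors over 111 kb with 62 read pairs. The intronic and MDS1 anchors were joined by 33 read pairs over 409 kb, and the EVI1 and MDS1 anchors by 14 over 520 kb. The downstream anchor was joined to the EVI1 anchor by 14 read pairs and to the intronic anchor by 9. In all, the 5 loops held 132 read pairs. In T-47D the EVI1 and MDS1 anchors were joined by 15 read pairs over 513 kb and the retained-intron and MDS1 anchors by 4 over 539 kb. The EVI1 and MDS1 start sites, which begin the short and the long form, were therefore the only pair of start site groups joined in both lists.

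Most MECOM partners lay inside the gene itself. In Ishikawa, 60 of 105 loops (57.1%) and 73.9% of read pairs stayed within the gene body, and in T-47D 13 of 19 (68.4%) and 66.9%. Of the Ishikawa loops, 46 ended in an intron-only anchor, 38 in intergenic sequence, 11 at a promoter and 10 at an anchor with an exon. In T-47D the numbers were 11, 5, 3 and 0. Partners lay on both sides of the start sites in Ishikawa, 51 upstream and 54 downstream, and mostly downstream of the MDS1 site in T-47D, 14 of 19.

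After the loop between the intronic and EVI1 anchors, the intronic site was joined most strongly to 169001070 to 169008529 (57 read pairs, 30.3 kb) and to 169095440 to 169117273 (49 read pairs, 132 kb), both in the gene. The latter is a 21.8 kb anchor with no start site that had 33 partners and 332 read pairs of its own. Its region was a partner of the MDS1 site too, with 15 read pairs in each line, and in T-47D the anchor was 169106281 to 169110849. The strongest T-47D loop, of 27 read pairs, ran 8.76 kb upstream from the MDS1 anchor to 169385832 to 169387577, which lies under the wider MDS1 anchor of Ishikawa and could not be seen there as a loop. The next, of 16 read pairs, ran 46.0 kb into the gene to 169329674 to 169334196. These regions are where the MDS1 site had its strongest contacts outside other start sites in T-47D.

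MECOM loops spanned longer distances than loops in general. Their median span was 230 kb in Ishikawa, against 37.0 kb for all loops and 56.5 kb for those within 5 Mb, and 162 kb in T-47D, against 85.8 and 87.9 kb. These sets were not matched for anchor width, and short contacts inside a wide anchor do not count as loops. The longest Ishikawa loops reached from the intronic anchor over 1357, 1134 and 1025 kb, each with 3 read pairs, to 170329047 to 170334353, 167837378 to 167842744 and 167945615 to 167953520. In T-47D the longest was 713 kb, to intergenic sequence at 168662815 to 168667107, followed by those to the retained-intron and EVI1 anchors. In Ishikawa the median value was lower at longer spans, with 9 read pairs under 50 kb, 8 at 50 to 200 kb, 5 at 200 to 500 kb and 3 at 500 kb or more. Of the 105 loops, 29 (27.6%) stood at the minimum of 3 read pairs, against 45.5% of all Ishikawa loops, and in T-47D 4 of 19 (21.1%) against 29.7%.

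The rows of the Ishikawa list were sorted within 4 successive parts, which could not be assigned to samples or treatments. MECOM loops were found in every part, 61, 22, 32 and 76 of them, at 1213 (1088 to 1351), 1054 (862 to 1288), 656 (561 to 767) and 973 (885 to 1069) RPM of the part. The level in the third part lay below the intervals of the others. With all start sites counted, each part was above the T-47D level. In the summed list, on which the gene was chosen, that order turned once the loops of the wide intronic anchor were left out. The intronic site led in each part, with 39, 14, 17 and 49 loops, against 10, 3, 12 and 15 at the MDS1 group and 13, 5, 5 and 13 at the EVI1 group. MDS1 loops outnumbered EVI1 loops in the third and the fourth part and not in the first or the second. Of the MECOM loops 49, 33, 16 and 7 were present in 1, 2, 3 and 4 parts, so that 46.7% stood in 1 part only, against 66.2% of all Ishikawa loops and 64.5% of those within 5 Mb. No MECOM loop had fewer than 3 read pairs in a part where it was present, so absence from a part may be a value below 3. These sets were not matched for read pairs, with a median of 7 for MECOM loops and 4 for all Ishikawa loops. The loops of 62, 57 and 49 read pairs were present in all 4 parts.

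**Figure D4:**
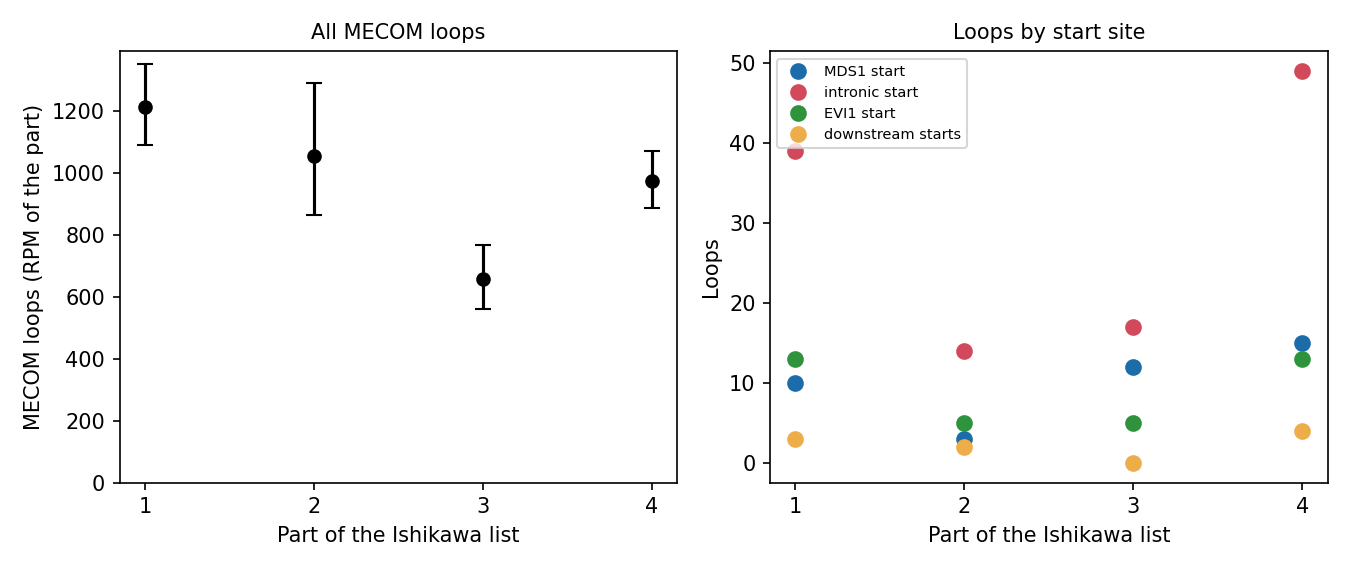
The left panel gives the RPM of MECOM loops (vertical axis) in each of the 4 parts of the Ishikawa list (horizontal axis) with 95% Wilson intervals, and the right panel gives the number of loops at each start site group in each part. The third part is lowest at 656 RPM, and the intronic start has the most loops in every part.

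Few MECOM loops were found in more than 1 line, where a loop counted as found when both of its anchors overlapped those of 1 loop of the other list. Of the 105 Ishikawa loops, 6 were found in T-47D (5.71%, 2.64 to 11.9), against 2.2% of all Ishikawa loops and 1.82% of those within 5 Mb of the gene. Of the 19 T-47D loops, 6 were found in Ishikawa (31.6%, 15.4 to 54.0), against 9.93% of all and 17.7% within 5 Mb, whose value lies inside the interval. All 6 were loops of the MDS1 anchor. In Ishikawa they ran to the EVI1 anchor (14 read pairs), to 169088026 to 169092598 (3), 169095440 to 169117273 (15), 169321764 to 169331528 (15) and 169332128 to 169339942 (10) in the gene, and to the anchor over the ACTRT3 and MYNN promoters (7). The share of Ishikawa loops found in T-47D rested on the overlap rule. At 50% overlap of both anchors it was 0%, against 0.129% of all Ishikawa loops, and with anchors within 10 kb it was 15.2% (9.60 to 23.3), against 9.13% of all. None of the 60 loops of the intronic site was found in T-47D, which had no anchor within 54.3 kb of that start site.

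Partner regions were also compared between the lines, whichever MECOM start site they were joined to. This rule is looser than that for loops, which needs both anchors to overlap, so the shares of regions and of loops cannot be ranked. Of the 61 distinct Ishikawa partner anchors, 11 overlapped a MECOM partner of T-47D, and of the 19 T-47D partners, 11 overlapped one of Ishikawa. They included an intron anchor at 169245159 to 169256426 with 21 and 3 read pairs in the respective lists, and another at 168888149 to 168894669 with 15 and 7. Both were joined in Ishikawa to MECOM start sites other than the MDS1 site, which was their partner in T-47D. Any T-47D anchor was overlapped by 21.3% of the Ishikawa partners, against 11.03% of the 517 Ishikawa anchors within 5 Mb. For T-47D partners in Ishikawa the values were 68.4% and 65.6%, so that share was near the one for the neighbourhood.

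LNCaP had acetylated contacts in the gene but not at its start sites. Of its loops, 16 touched the gene body, with 75 read pairs or 41.5 RPM, compared with 202 loops at 1557 RPM in Ishikawa and 32 at 578 in T-47D. Ishikawa anchors covered 48.1% of the gene, T-47D anchors 8.52% and LNCaP anchors 4.4%. The nearest LNCaP anchors lay 9.15 kb from the intronic start site (168996177 to 168999586), 24.4 kb from the EVI1 group and 34.5 kb from the MDS1 group. The first of these had 8 partners and the strongest LNCaP loop in the gene, of 16 read pairs over 13.4 kb. It overlaps the end of the wide intronic anchor of Ishikawa, and 9 LNCaP loops had an anchor over that interval.

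Of the Ishikawa MECOM loops, 3 were found in LNCaP (2.86%, 0.976 to 8.07), against 5.25% of all and 2.73% within 5 Mb, so MECOM was near its neighbourhood. All 3 belonged to the wide intronic anchor, with 4, 5 and 7 read pairs, and the last ran to the ACTRT3 and MYNN promoters. At 50% overlap of both anchors 0% were found, against 0.69% of all, and with anchors within 10 kb 11.4% (6.66 to 18.9), against 18.9% of all. None of the 19 T-47D loops was found in LNCaP (0%, up to 16.8), against 38.9% of all T-47D loops and 18.3% of those within 5 Mb. Since LNCaP had no anchor over the MDS1 site, through which all T-47D loops passed, none could be found. Just outside the 500 bp windows, Ishikawa had an anchor 2.28 kb from the retained-intron site (168833340 to 168838185) and T-47D one 5.36 kb from the 3 downstream sites.

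The promoters joined to MECOM lay just upstream of the gene. In Ishikawa, MYNN, which encodes the zinc finger protein myoneurin, was joined to MECOM anchors by 5 loops with 30 read pairs, and ACTRT3, an actin-related protein, by 3 with 20. LRRC34 and LRRIQ4, leucine-rich repeat proteins with promoters in 1 anchor, followed with 3 read pairs. In T-47D, ACTRT3 and MYNN shared a promoter anchor joined to the MDS1 site by 12 read pairs. TERC, the gene of the RNA component of telomerase, lay in the partner anchor 169481258 to 169493268 in Ishikawa together with the ACTRT3 and MYNN promoters, and in a separate anchor, 169481255 to 169483576, in T-47D with 5 read pairs. Another Ishikawa anchor with a MYNN promoter and without TERC, 169495202 to 169506508, was joined to the intronic site by 7 read pairs and to the MDS1 site by 3. Ishikawa contacts of TERC thus could not be separated from those of ACTRT3, while MYNN had contacts of its own.

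The same genes shared distal anchors with MECOM. In Ishikawa, 6 of 9 distal anchors of MYNN and 5 of 6 of ACTRT3 were among the 55 of MECOM (10.9% and 9.09% of these). In T-47D, ACTRT3 and MYNN, which have 1 promoter anchor there, shared 4 of 7 (25% of the 16 of MECOM) and PHC3, a Polycomb protein, 2 of 3. GPR160, LRRC31, PRKCI and SKIL each shared 1. Partners of the intronic anchor were less often joined to each other than those of other well-connected anchors, with 10.7% of 1770 partner pairs joined, against a median of 25.4% (range 4.76 to 68.4) over 551 other Ishikawa anchors with 20 or more partners. This has no test, and neither the spacing nor the number of partners was matched, the intronic anchor having 60. For the EVI1 and MDS1 anchors the values were 25.3% and 28.6%, and for the MDS1 anchor of T-47D 9.94% against a median of 44.2% over 278 anchors.

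Among the 25 protein-coding genes with a start site within 2 Mb, 22 had a linked distal anchor in the Ishikawa list, 13 in that of T-47D and 11 in that of LNCaP, that is 88%, 52% and 44%, while 52.5%, 34.7% and 52.4% of all genes were linked. In Ishikawa the next highest after MECOM were PLD1 (phospholipase D1) with 47 distal anchors, the kinase gene TNIK with 30, and SKIL, a repressor of SMAD signalling, with 26. In T-47D, TNIK had 8 and ACTRT3 and MYNN 7, all below the 16 of MECOM. In LNCaP, ACTRT3 and MYNN were highest with 11, PDCD10 and SERPINI1 had 6, and MECOM and 14 neighbours had none. MECOM was highest among these genes in T-47D, and in Ishikawa that place followed from the choice of the gene. Without the wide intronic anchor MECOM had 27 distal anchors in Ishikawa, fewer than PLD1 and TNIK. MECOM had no links in LNCaP, where genes on either side of it were linked.

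**Figure D5:**
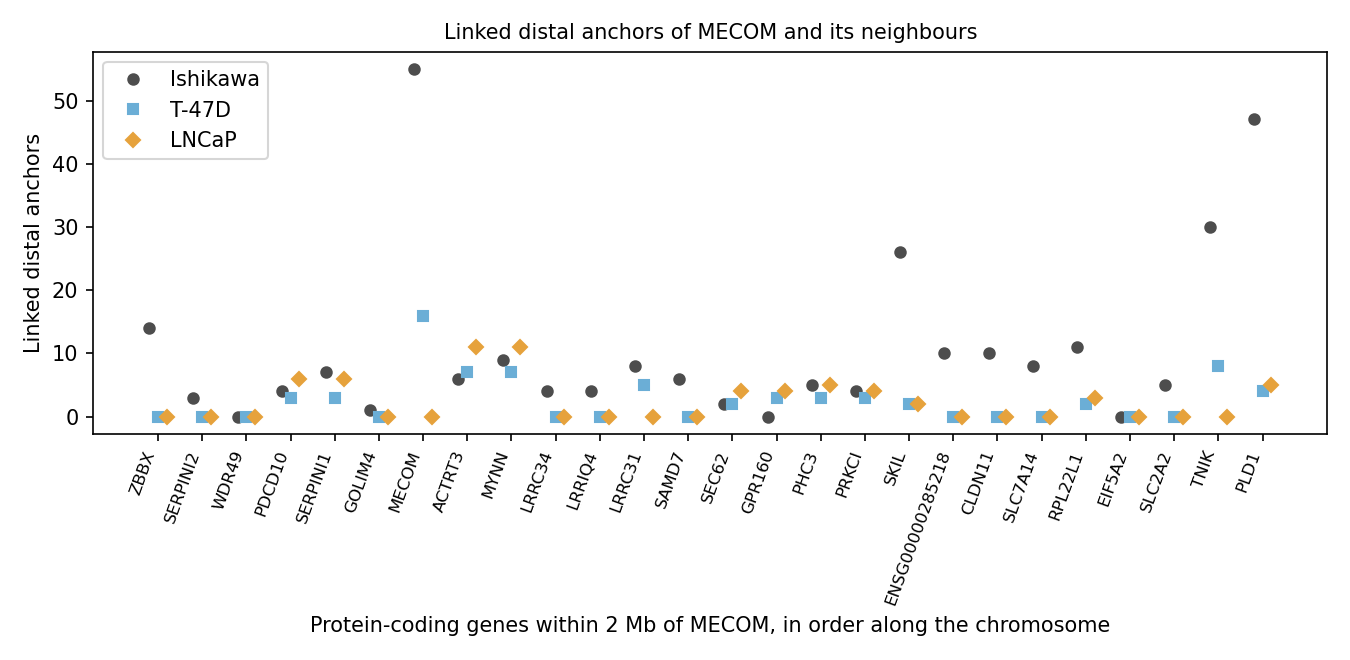
Points give the number of linked distal anchors (vertical axis) of MECOM and the 25 protein-coding genes within 2 Mb, in order along chromosome 3 (horizontal axis), in the 3 lines. MECOM is highest in Ishikawa (55) and T-47D (16) and at 0 in LNCaP, where ACTRT3 and MYNN stand at 11.

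Of 15 other PRDM genes, 8 were linked in Ishikawa and 5 in each of the other lists, near the shares over all genes in the first 2 lists. PRDM16, the closest relative of MECOM, had 5 distal anchors in Ishikawa and no loop in the other lists. PRDM1 (BLIMP1) had 13, 1 and 2, and PRDM10 had 0, 11 and 14, in the order Ishikawa, T-47D, LNCaP. Like MECOM, PRDM11 and PRDM6 had promoter loops in Ishikawa (3 each) and T-47D (2 each) and none in LNCaP. None of the 15 had more than 14 links in any list.

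Of 10 genes whose proteins are known to bind or act with EVI1, 7 were linked in Ishikawa, 7 in LNCaP and 8 in T-47D, that is 70%, 70% and 80%, beside 52.5%, 52.4% and 34.7% of all genes. The corepressor gene CTBP2 was highest, with 28, 9 and 39 distal anchors, here in the order Ishikawa, T-47D, LNCaP. GATA2, a blood stem cell factor, had 9, 5 and 25 in the same order, and RUNX1 had 8, 1 and 1. GATA1 and SPI1, factors of mature blood lineages, had none. All 5 Müllerian factors were linked in Ishikawa and none had a loop in the other lists, with 8 distal anchors at PAX2 and 1 at WT1 beside those of PAX8, SOX17 and EMX2 above. Unlike MECOM, these 5 had no loop in T-47D.

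The genes most like MECOM over the 3 lists, by Euclidean distance in log2 of promoter RPM plus 1, were KRT86 (1.65) and KRT7 (1.76), keratin genes on chromosome 12, and AMOTL2 (1.84), an angiomotin family gene on chromosome 3. KRT86 had 384 RPM in Ishikawa and 231 in T-47D, KRT7 313 and 288, and AMOTL2 300 and 763, and all had 0 in LNCaP. Each was below the 969 of MECOM in Ishikawa, and AMOTL2 was above it in T-47D.

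Because the study treated Ishikawa cells with E2, MECOM anchors were searched for the palindromic estrogen response element, defined as GGTCA and TGACC separated by 3 bases, which reads the same on both strands. It occurred in 1 of 62 anchors of Ishikawa MECOM loops (1.61%), against 0.571% of all Ishikawa anchors, and in 0 of 20 in T-47D, against 0.562%. Per length this was 1.95 against 0.969 elements per 1 Mb in Ishikawa, from a single match. The match lies at chr3:168671447-168671459 (GRCh37, shown on the plus strand with the element's arms in capitals and 8 bases on each side), 710 kb downstream of the MDS1 start.
Element in a MECOM partner anchor: ctgaaaagGGTCAtgtTGACCtgattgtc
Its anchor (168667111 to 168681345) was joined to MECOM by 4 loops with 18 read pairs in Ishikawa. A match of letters does not show binding, and no match says only that these letters were not in the window.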

How the data were processed

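H3K27ac HiChIP was analysed in 7 samples of 3 established human cancer cell lines. The authors aligned reads to hg19 with HiC-Pro, called loops with hichipper and removed loops with fewer than 3 reads or a high false discovery rate, and versions are not given in the sources used here. The deposited values are counts of read pairs per loop, pooled by the authors per cell line and not scaled for depth. The lists were not filtered alike, since LNCaP had no pair within 1 anchor and no span outside 5 kb to 2 Mb, a range that holds all MECOM loops of the other lists.

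Ishikawa rows of the same anchor pair were summed over the 4 sorted parts of its list. At MECOM loops the minimum of 3 read pairs held within each part, so lower values in a part are missing from the sums. Start sites came from GENCODE lifted to GRCh37, and anchor edges lay at GATC sites of that build in 100% of Ishikawa and LNCaP anchors and 99.99% of T-47D anchors. Coordinates are counted from 1. MECOM, its loops and the gene lists were chosen with earlier results of these data known. Named genes were MECOM, up to 5 genes with joined promoters and 5 with shared distal anchors per list, the 3 genes most alike, members of the fixed lists (1 marker gene and 1 promoter sequence are not reported here), and the 3 strongest and 3 longest loops per list. With 1 list per line no test was run. Shares have 95% Wilson intervals and ratios exact conditional binomial intervals. Alternatives were the minimum count, thinning, span, window, start sites, parts, overlap and scale. Scripts in Python 3.11.15 with pandas 2.3.3, numpy 2.4.6 and scipy 1.17.1 were tested on simulated data.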

Additional observations from a re-analysis of the deposited data

Results flagged for a closer look

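Read pairs outside the definition of a loop were present at MECOM anchors. In T-47D, 13 read pairs joined MECOM anchors to chromosome 10 (75011197 to 75013777, over the MRPS16 promoter), 9 of them at the MDS1 anchor and 4 at the EVI1 anchor. The chromosome 10 anchor had 8 of the 70 pairs across chromosomes in the T-47D list, all with chromosome 3, and 35 of their 308 read pairs.

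Both ends lay in 1 MECOM anchor for 338 Ishikawa and 89 T-47D read pairs. They were 25.1% (22.9 to 27.5) and 35.7% (30.0 to 41.9) of the read pairs at these anchors. In the whole lists such pairs were 31.2% and 46.8%. There both anchors of every loop belong to the set, whereas most MECOM loops end at other anchors, so these shares cannot be ranked.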

How the results depend on the processing

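No paired analysis was possible because each cell line has 1 pooled list and its columns carry no replicate. Over the alternatives, 78 values stayed within their 95% counting interval (percents) or within 1.5 times (counts) and 33 did not. LNCaP stayed at 0 loops throughout, but of the alternatives only the wider start site window could have added any. The 78 thus include values that could not change, as do those of T-47D thinned to the shallowest list, which is its own. The order of Ishikawa and T-47D turned within 5 Mb and without the wide anchor. Ishikawa loops fell from 105 to 67 at a minimum of 5 read pairs, 32 at 10, 45 after thinning to the shallowest list and 56 in 2 or more parts, and T-47D loops from 19 to 12 and 6 at the higher minimums. Distal anchors in Ishikawa became 23 at 10 read pairs, 33 after thinning and 35 in 2 or more parts, and in T-47D 10 and 4 at 5 and 10. The Ishikawa percent of read pairs became 0.121 and 0.139 at 5 and 10 read pairs, 0.128 after thinning, 0.162 for spans of 20 kb to 1 Mb and 0.124 in 2 or more parts, and the T-47D percent 0.0558 for those spans. Leaving out each part in turn gave 79 to 104 loops, 44 to 55 distal anchors, 0.0884% to 0.106% of read pairs, 1.27% to 3.49% of loops found in LNCaP and 4.9% to 7.59% in T-47D. The share found in LNCaP was 0 at 10 read pairs, after thinning and at 50% overlap of both anchors, and 11.4% with anchors within 10 kb. That found in T-47D was 12.5% at 10 read pairs, 0 at 50% overlap and 15.2% within 10 kb, so both shares rest on how overlap is defined, with anchors of unequal width. Chosen after seeing the data, the scale of read pairs within 5 Mb gave 8.51% and 12.2% for Ishikawa and T-47D, and leaving out the wide anchor over the intronic start (with every loop that ends on it) gave 45 loops, 27 distal anchors, 0.0290% of read pairs, 0 found in LNCaP and 13.3% in T-47D. Loops below 3 read pairs or with a high false discovery rate are not in the lists, so a contact that is missing may still be present below these limits.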
